A study of Mus musculus with 18 samples.

Results

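The genes described here are 9 enzymes that activate, lengthen and desaturate long fatty acids in the mouse liver. They were chosen by gene symbol, as the fatty acid elongases Elovl1, Elovl2, Elovl3 and Elovl5, the desaturases Fads1 and Fads2, and the acyl-CoA synthetases Acsl3, Acsl4 and Acsl5. All 9 were present among the 14451 genes of the table, with 1 row each, and all 9 were among the 14449 genes tested. RNA was sequenced from the whole livers of 18 wild-type male mice aged 8 to 9 weeks, housed with 12 h of light and 12 h of dark. There were 3 livers, 1 from each mouse, at each zeitgeber time (ZT, the hours since the lights came on), namely ZT1, ZT5 and ZT9 in the light and ZT13, ZT17 and ZT21 in the dark. No other treatment or genotype was included, and the sequenced livers were those with the best RNA of a larger number collected at each time. Each time point was sampled on a single cycle of 24 h.

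Long fatty acids enter metabolism once an acyl-CoA synthetase has joined them to coenzyme A. In the endoplasmic reticulum, elongases then add carbon atoms in pairs, each with its own preference for chain length and for saturated or unsaturated chains, and desaturases insert double bonds. Elovl2, Elovl5, Fads1 and Fads2 work in turn on dietary linoleic and alpha-linolenic acid to make arachidonic and docosahexaenoic acid. The liver is a main site of this synthesis, and Elovl3 is well known there for its daily rhythm.

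The deposited values are estimated read counts per 1000000 reads, with library sizes adjusted by the authors, and they are given below as normalized values with no further unit. Depth ranged from 10268168 to 23242842 estimated reads per liver, and between 243 and 17099 estimated reads stood behind each value of the 9 genes. Livers of the same time had a median correlation of 0.989 across genes, against 0.980 for livers of different times, and no pair of livers held identical values. The clock genes followed the labels: Arntl, the clock activator BMAL1, had a mean of 31.6 at ZT1 and 1.31 at ZT9, and Per2, a clock repressor, 102.5 at ZT13 and 12.2 at ZT1. Markers of hepatocytes were all present, with a summed value between 70362 and 101047 in each liver. In whole livers, fewer cells of a type and less RNA per cell cannot be told apart.

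In the GENCODE M21 annotation of GRCm38, Fads1 (ENSMUSG00000010663, chr19:10182888-10196877, plus strand) and Fads2 (ENSMUSG00000024665, chr19:10062765-10101746, minus strand) lie side by side and point away from each other, with start sites 81142 bases apart. Acsl5 (ENSMUSG00000024981, chr19:55251938-55297720) and Elovl3 (ENSMUSG00000038754, chr19:46131897-46135694) lie on the same chromosome. The others are spread over the genome, with Acsl3 (ENSMUSG00000032883) at chr1:78657825-78707743, Elovl1 (ENSMUSG00000006390) at chr4:118428093-118432953, Elovl5 (ENSMUSG00000032349) at chr9:77917364-77984519, Elovl2 (ENSMUSG00000021364) at chr13:41182381-41220405 and Acsl4 (ENSMUSG00000031278) at chrX:142317993-142390535. The exons of 4 of the 9 overlap those of another gene, and the strand used in counting is not given in the sources used here. The shared stretch was 404 bases between Acsl5 and Zdhhc6, whose mean value was 56.9, and 244 bases between Acsl3 and Utp14b, whose mean value was 9.71. It was 53 bases between Elovl1 and Cdc20 and 10 bases between Elovl3 and Pitx3.

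Levels can be compared between genes only per length. Per kilobase of merged exons, the mean normalized value over the 18 livers was highest for Elovl3 at 167, followed by Elovl2 at 157 and Elovl5 at 126. Fads1 reached 107, Fads2 95.3 and Acsl5 85.0. Acsl4 at 16.6, Elovl1 at 15.9 and Acsl3 at 8.48 were the lowest on this scale, so the elongases and the synthetases each held both abundant and scarce transcripts. The order at the top turned with time: Elovl3 reached 401 ± 24.8 (SD, n = 3) at ZT1 against 178 ± 5.40 (SD, n = 3) for Elovl2, but 19.3 ± 4.38 (SD, n = 3) at ZT9 against 175 ± 27.7 (SD, n = 3). Elovl3 was also below Elovl2 at ZT5 and ZT13.

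Elovl5 and Acsl5 are shown first with their promoters because their fitted peaks, given below, fell within an hour of each other around the onset of light. Both sequences are the 250 bases before a start site in RefSeq (GRCm38.p6), on the plus strand, at chr9:77917115-77917364 for Elovl5 and chr19:55253119-55253368 for Acsl5. The stretch of Elovl5 ends where the gene begins in GENCODE. That of Acsl5 lies inside the gene as given above, before a start site within it. Capitals mark an E-box (CACGTG, the core bound by clock activators) or a CCAAT box (on the other strand, ATTGG).
Elovl5: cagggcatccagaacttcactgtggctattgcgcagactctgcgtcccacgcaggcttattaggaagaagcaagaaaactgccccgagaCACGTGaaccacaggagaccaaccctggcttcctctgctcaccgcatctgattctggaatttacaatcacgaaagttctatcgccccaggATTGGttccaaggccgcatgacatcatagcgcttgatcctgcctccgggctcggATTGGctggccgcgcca
Acsl5: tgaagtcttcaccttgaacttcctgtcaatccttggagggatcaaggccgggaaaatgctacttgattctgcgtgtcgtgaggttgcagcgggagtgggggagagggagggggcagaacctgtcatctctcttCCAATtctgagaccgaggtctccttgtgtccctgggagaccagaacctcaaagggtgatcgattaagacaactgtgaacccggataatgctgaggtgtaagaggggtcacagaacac
RefSeq windows from 250 bases before to 50 after a start site were found for 7 of the 9 genes, 9 windows in all, and the search covered both strands. Entries for Elovl3 and Fads1 were not found. The motifs searched were the E-box, the D-box (TTATGTAA or TTACGTAA), the nuclear receptor motif AGGTCA, the CCAAT box and the sterol element core TCACCCCAC, and none of these overlap in the windows. Elovl5 held an E-box from −161 to −156, counted from the start site, and CCAAT boxes on the minus strand beginning at −71 and −17. A CCAAT box was also found at −117 in Acsl5, at −15 in Acsl3 and at −35 in 1 window of Elovl1, whose other window held AGGTCA at −95. The windows of Elovl2, Fads2 and Acsl4 held none of these letters. Over all 32851 mouse windows of 300 bases, 7.15% held an E-box, 1.06% a D-box, 16.3% AGGTCA, 37.4% CCAAT and 0.551% the sterol element core.

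To find which of these genes changed over the day, limma was used to fit a 24 h cosine to every gene on the log2(value + 1) scale, and p-values were adjusted by Benjamini–Hochberg over all 14449 genes. The amplitude is the distance of the fitted peak from the middle, in log2 units. At an adjusted p below 0.05, 7 of the 9 genes were rhythmic, where 35.3% of all genes were. Without assuming a shape, the 6 time points differed for 6 of the 9 genes, against 26.3% of all genes. The 4 elongases, Fads2 and Acsl5 passed both tests, Acsl4 passed only the cosine, and Fads1 and Acsl3 passed neither. The median amplitude of the 9 genes was 0.46, against 0.16 over all genes. The livers at the time of the highest mean and those at the time of the lowest did not overlap for 7 of the 9 genes, all but Acsl3 and Acsl4, where 70.8% of all genes showed such a separation. A rhythm of 12 h beside that of 24 h was called by limma for 0 of the 9 genes, against 0.872% of all genes. At an unadjusted p below 0.05 only Elovl3 had such a term (unadjusted p = 0.0025, adjusted p = 0.117).

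**Figure D1:**
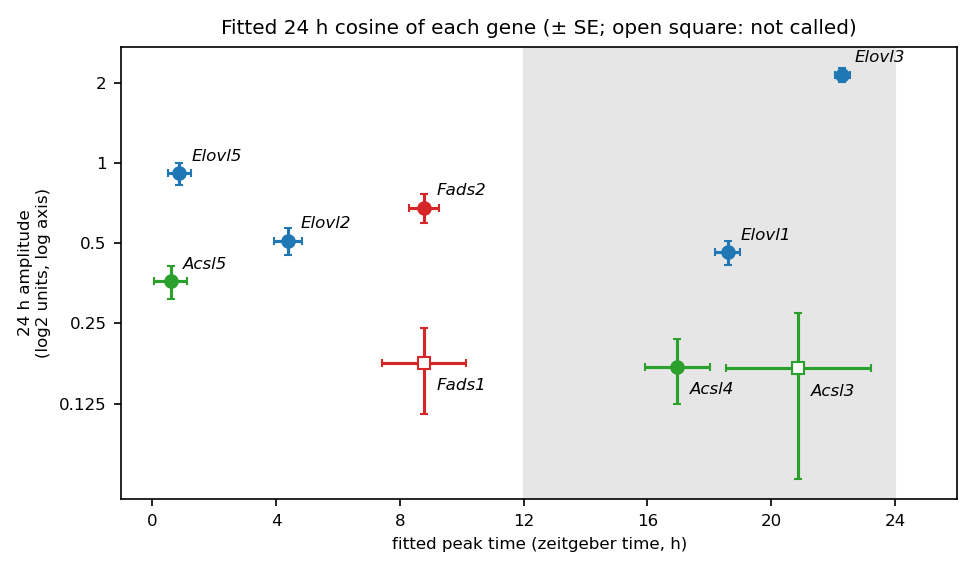
Fitted peak time (zeitgeber time in hours, horizontal) and 24 h amplitude (log2 units, logarithmic vertical axis) of the 9 genes from the limma cosine, with standard errors over 18 livers; blue marks elongases, red desaturases and green acyl-CoA synthetases, filled circles are called and open squares are not, and the dark phase is shaded. Elovl3 stands highest at 2.14, the peaks of the elongases are spread over the light and the dark, and Fads1 sits straight below Fads2.

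Elovl3, which lengthens saturated and monounsaturated chains, had by far the widest rhythm of the 9. It was 806, 831 and 737 in the livers of ZT1 and 164, 216 and 117 in those of ZT5. It then fell to 47.1, 29.9 and 37.3 at ZT9. All 3 livers of ZT9 thus lay below every liver of any other time, and the fall over the light phase took the mean from 791 ± 49.0 (SD, n = 3) to 38.1 ± 8.65 (SD, n = 3), a ratio of 20.8. In the dark the values climbed again. They were 53.2, 79.6 and 118 at ZT13, 248.7, 274 and 344 at ZT17, and 652, 619.6 and 579 at ZT21. Each neighbouring pair of time points in the order of the means was free of overlap, with the exception of ZT5 and ZT13. The fitted amplitude was 2.14 ± 0.14 (SE, limma, adjusted p = 2.69e-08) with a peak at 22.3 ± 0.24 h, and in amplitude Elovl3 ranked 6 among the 14449 genes.

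Elovl5, which lengthens polyunsaturated chains early in their pathway, was found at either a high or a low level, with little in between. The livers of ZT1 held 594, 644 and 781, those of ZT5 741, 524 and 591, and those of ZT21 535, 692 and 633. At ZT9 the values were 262, 263 and 215, at ZT13 269.9, 197 and 263, and at ZT17 215, 288 and 290.4. No liver of the first 3 times overlapped with any of the latter 3, while within each of these sets the time points overlapped. The mean was 673 ± 96.9 (SD, n = 3) at ZT1 and 243 ± 40.3 (SD, n = 3) at ZT13, a ratio of 2.77. The cosine had an amplitude of 0.91 ± 0.088 (SE, limma, adjusted p = 2.55e-06) and peaked at 0.876 ± 0.37 h, just after lights on.

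Elovl2 acts after Elovl5, on the longer polyunsaturated chains that lead to docosahexaenoic acid, and it was highest in the light. Its values were 680.2, 710.1 and 722 at ZT1, 1189.7, 799 and 712 at ZT5, and 609, 816 and 652 at ZT9. In the dark they were 492, 459 and 459 at ZT13, 421, 426 and 406 at ZT17, and 518, 609 and 555 at ZT21. The 3 livers of ZT17 lay below all others, and the livers of ZT13 below all those of the light phase and of ZT21, while the other neighbours in the order of the means overlapped. One liver of ZT5 stood far above the other two. The mean was 418 ± 10.3 (SD, n = 3) at ZT17 against 900.3 ± 254 (SD, n = 3) at ZT5, a ratio of 2.16, and the cosine had an amplitude of 0.51 ± 0.060 (SE, limma, adjusted p = 2.22e-05) with a peak at 4.38 ± 0.45 h.

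Elovl1, which makes very long saturated and monounsaturated chains for sphingolipids, peaked in the dark. It was 38.4, 48.5 and 39.4 at ZT1, 34.6, 31.3 and 30.1 at ZT5, and 28.8, 33.7 and 30.1 at ZT9. In the dark phase it was 47.8, 44.5 and 40.1 at ZT13, 57.4, 63.7 and 57.1 at ZT17, and 59.4, 45.9 and 49.6 at ZT21. Every liver of ZT5 and ZT9 lay below every liver of the other times, and all other neighbours in the order of the means overlapped. The mean was 59.4 ± 3.74 (SD, n = 3) at ZT17 and 30.9 ± 2.52 (SD, n = 3) at ZT9, a ratio of 1.92. The amplitude was 0.46 ± 0.049 (SE, limma, adjusted p = 6.66e-06) and the peak lay at 18.6 ± 0.40 h.

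**Figure D2:**
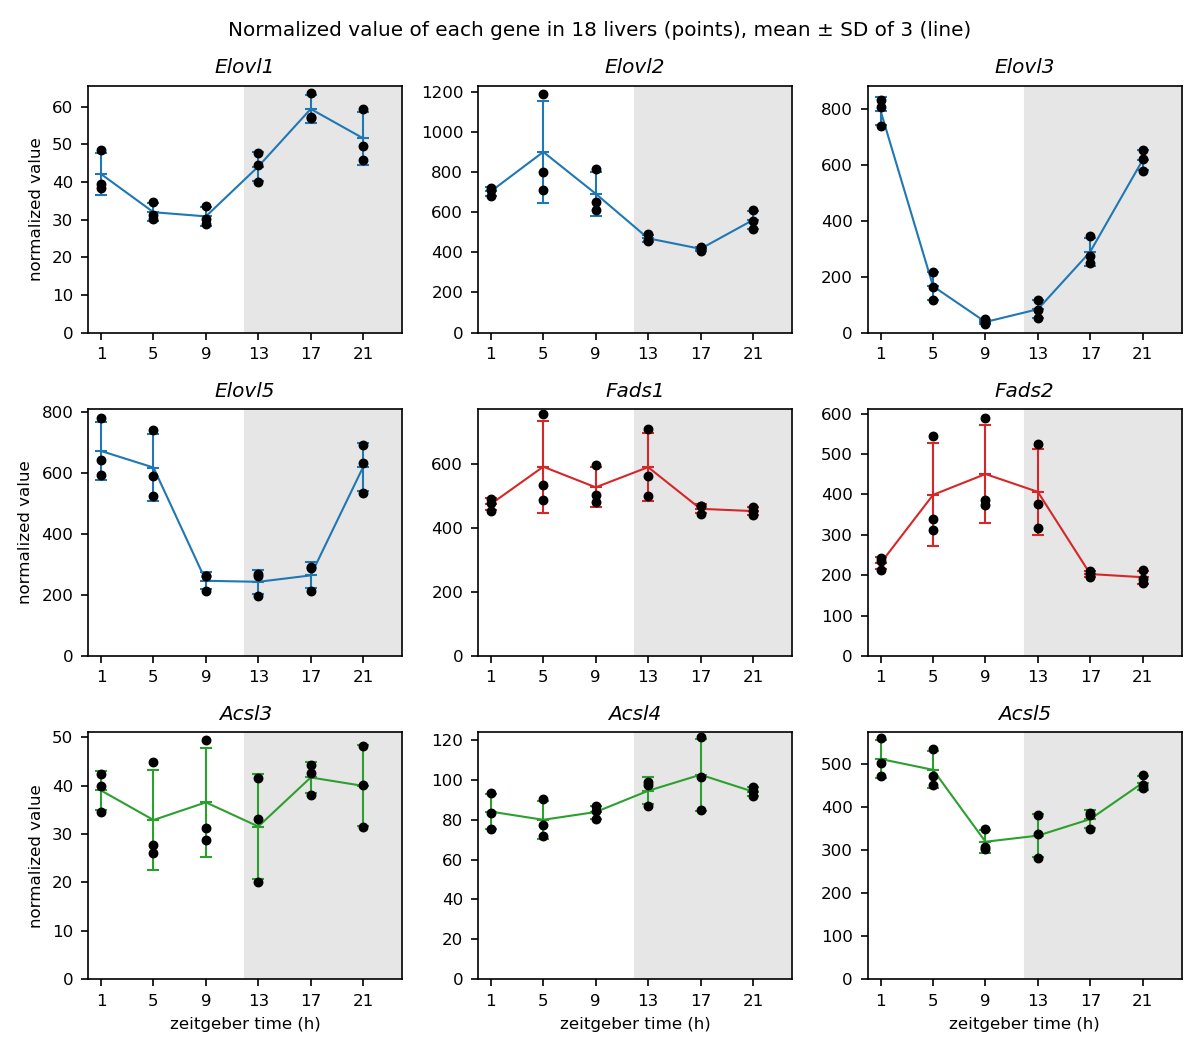
Normalized value (vertical, linear from 0, a separate scale for each gene) of the 9 genes against zeitgeber time in hours (horizontal), with 1 point for each of 18 livers and the mean ± SD of 3 livers as a line; the dark phase is shaded. Elovl3 falls to 38.1 at ZT9, and 1 liver each at ZT5, ZT9 and ZT13 stands high for Fads2. Elovl5 is high at ZT21, ZT1 and ZT5 and low at ZT9, ZT13 and ZT17.

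Fads2 catalyses the entry step of polyunsaturated fatty acid synthesis, and it rose in the middle of the day. Its values were 242, 213 and 235 at ZT1, and 546, 311 and 340.3 at ZT5. They stayed high at ZT9, with 386, 591 and 375, and at ZT13, with 524, 318 and 377. They were 195, 211 and 202 at ZT17, and 191, 213 and 181 at ZT21. All 9 livers of ZT5, ZT9 and ZT13 lay above the other 9. The mean was 450.5 ± 121 (SD, n = 3) at ZT9 and 195 ± 16.0 (SD, n = 3) at ZT21, a ratio of 2.31. The spread at ZT5, ZT9 and ZT13 was wide, with a CV between 26.2% and 32.1%, where at ZT1, ZT17 and ZT21 it was between 3.79% and 8.22%. The cosine had an amplitude of 0.68 ± 0.087 (SE, limma, adjusted p = 5.36e-05) and peaked at 8.78 ± 0.49 h.

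Fads1, the partner of Fads2 in a later step of the same pathway, varied far less. Its livers held 479, 491 and 453 at ZT1, 755, 486 and 532 at ZT5, 501, 597 and 481 at ZT9, 708, 499 and 562 at ZT13, 468, 443 and 467 at ZT17, and 452, 464 and 441 at ZT21. Every neighbour in the order of the means overlapped, although the livers of ZT5, with a mean of 591 ± 144 (SD, n = 3), all lay above those of ZT21, with a mean of 452 ± 11.6 (SD, n = 3). The fitted peak of 8.77 ± 1.36 h was close to that of Fads2, but the amplitude of 0.18 ± 0.063 (SE, limma) missed the threshold, with an adjusted p of 0.086. Scaled to equal sums of all values, Fads1 passed (adjusted p = 0.044), as it did after quantile normalization (adjusted p = 0.043) and without the third liver of ZT9 (adjusted p = 0.047).

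Of the markers of other cells, those of Kupffer cells, endothelium and adipocytes had higher sums at ZT5, ZT9 and ZT13, as did Fads2. The summed value of 6 of 6 Kupffer cell markers, none of them at 0 in any liver, had means of 181, 240, 241, 219, 176 and 142 from ZT1 to ZT21. Of these 6 genes 3 were rhythmic by the limma cosine, against 35.3% of all genes, 1 passed the test of the 6 time points, and JTK called 0, with 2 at an unadjusted p below 0.05. The sum of 6 of 6 endothelial markers had means of 140, 187, 171, 158, 135 and 126 in the same order. Of these 3 passed the cosine, 0 the test of the 6 time points in limma, with 2 at an unadjusted p below 0.05, and 0 JTK, with 0 at an unadjusted p below 0.05. Over single livers these sums ranged from 107 to 283 and from 92.3 to 212. The adipocyte sum held only 1 of 4 listed genes, with means of 0.309, 0.611, 0.981, 1.14, 0.264 and 0.456 from ZT1 to ZT21. The erythroid sum was lowest at ZT9, with a mean of 150.1, where Fads2 was highest. The means of stellate cell (174.9 to 204), cholangiocyte (37.6 to 48.9) and lymphocyte markers (9.47 to 13.2) did not have their 3 highest values at ZT5, ZT9 and ZT13. The Kupffer cell and endothelial sums were both highest in the first liver of ZT5, which was also the liver with the highest Elovl2 and Fads1. The stellate cell (252), lymphocyte (14.8) and erythroid (412) sums were highest there too, unlike those of hepatocytes, cholangiocytes and adipocytes. The part of these cell types in the desaturase values was not tested.

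Acsl5, a synthetase of the mitochondrial outer membrane and endoplasmic reticulum, was highest around the onset of light. The values were 473, 504 and 560.0 at ZT1, 535, 452 and 473 at ZT5, and 350.3, 302 and 307 at ZT9. In the dark they were 282, 338 and 382 at ZT13, 349, 387 and 381 at ZT17, and 444, 451 and 475 at ZT21. As for Elovl5, the livers of ZT21, ZT1 and ZT5 all lay above those of ZT9, ZT13 and ZT17. The mean was 512 ± 44.3 (SD, n = 3) at ZT1 and 320 ± 26.7 (SD, n = 3) at ZT9, a ratio of 1.60, and the amplitude was 0.36 ± 0.050 (SE, limma, adjusted p = 0.000138) with a peak at 0.593 ± 0.54 h.

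Acsl4, which prefers arachidonic acid, had a small rhythm with its fitted peak in the dark. Its values were 93.3, 83.4 and 75.4 at ZT1, 90.3, 77.6 and 71.9 at ZT5, and 84.4, 86.8 and 80.3 at ZT9. They were 99.1, 86.7 and 97.6 at ZT13, 101, 121 and 85.1 at ZT17, and 96.3, 94.3 and 91.7 at ZT21. All time points overlapped with their neighbours in the order of the means. The amplitude of 0.17 ± 0.047 (SE, limma) passed the threshold with an adjusted p of 0.0237. It was lost when the values were scaled to equal sums (adjusted p = 0.134), after quantile normalization (adjusted p = 0.0508), without the third liver of ZT5 (adjusted p = 0.063) and without the second liver of ZT17 (adjusted p = 0.069).

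Acsl3, a synthetase of the endoplasmic reticulum and of lipid droplets, passed none of the tests of a daily change. Its livers differed as much at 1 time as between times, with 19.99, 33.1 and 41.6 at ZT13 and 31.3, 49.5 and 28.8 at ZT9. The other livers held 34.6, 39.95 and 42.4 at ZT1, 44.9, 26.1 and 27.7 at ZT5, 44.2, 42.7 and 38.1 at ZT17, and 31.5, 48.3 and 40.1 at ZT21. The median CV within a time point was 25.96%, larger than the CV of 10.9% between the time point means. The amplitude was 0.17 ± 0.10 (SE, limma, adjusted p = 0.393), the size of that of Acsl4 with a larger error.

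The dark and the light phase were compared by the mean log2 value of ZT13, ZT17 and ZT21 against that of ZT1, ZT5 and ZT9 in limma. Of the 9 genes, 3 were higher in the dark, where 11.9% of all genes were, and 3 were lower, where 12.3% of all genes were. This split depends on the scaling: of all genes called, 49.2% were higher in the dark with the scaling of the authors, 30.4% with equal sums and 49.5% after quantile normalization. Elovl1 was higher in the dark by 0.55 ± 0.068 (SE, adjusted p = 4.69e-05), and Elovl2 was lower by −0.65 ± 0.088 (SE, adjusted p = 0.000103). Elovl5 differed by −0.46 ± 0.099 (SE, adjusted p = 0.00387) and Fads2 by −0.44 ± 0.12 (SE, adjusted p = 0.0184). The opposite signs of Elovl1 and Elovl2 were kept under each scaling.

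Elovl3 shows how such a contrast depends on the scale. On the log2 scale it was higher in the dark by 0.51 ± 0.15 (SE, limma, adjusted p = 0.0192), while its mean normalized value was 329.8 in the dark and 332 in the light. Acsl4 was higher in the dark by 0.23 ± 0.071 (SE, adjusted p = 0.0304). That call was lost with equal sums (adjusted p = 0.108), after quantile normalization (adjusted p = 0.0571) and in 8 of 18 fits that each left out 1 liver, with adjusted p-values from 0.0512 to 0.0608. These livers were the third of ZT1, the second and the third of ZT5, the third of ZT9, the first and the third of ZT13, the second of ZT17 and the first of ZT21. Acsl5, at −0.16 ± 0.066 (SE, adjusted p = 0.082), became a call with equal sums (adjusted p = 0.0263), after quantile normalization (adjusted p = 0.042), with a trend of the variance on the mean (adjusted p = 0.0476) and without the third liver of ZT13 (adjusted p = 0.0357). The differences of Fads1 (−0.08 ± 0.086, adjusted p = 0.52) and Acsl3 (0.06 ± 0.15, adjusted p = 0.827) did not pass, and that of Acsl3 changed sign with equal sums (−0.00288) and without the third liver of ZT13 (−0.0195).

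The daily profiles of enzymes of the same class were next compared by their ratio within each liver, in which the scaling of that liver cancels. A cosine of 24 h was fitted to the log2 ratio of 7 pairs, and a permutation test with 100000 permutations of the livers gave p-values that were adjusted over the 7 pairs. The ratio of Fads2 to Fads1 rose from 0.485 at ZT1 to 0.841 at ZT9 and returned to 0.431 at ZT21. Its cosine had an amplitude of 0.50 ± 0.045 (SE, permutation p = 1e-05, the smallest that these permutations can give, adjusted p = 2.3e-05) and peaked at 8.78 h. The transcripts of the entry step and the later step were therefore not kept in 1 proportion over the day, even though their fitted peaks nearly coincide.

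The ratio of Elovl2 to Elovl5 was 1.05 at ZT1, 2.79 at ZT9 and 0.908 at ZT21, with an amplitude of 0.73 ± 0.085 (SE, permutation p = 1e-05, adjusted p = 2.3e-05) and a peak at 10.6 h. That of Elovl3 to Elovl5 fell from 1.18 at ZT1 to 0.156 at ZT9 and was 1.09 at ZT17, with an amplitude of 1.54 ± 0.18 (SE, permutation p = 1e-05, adjusted p = 2.3e-05). The ratio of Elovl1 to Elovl5 was 0.0641 at ZT1 and 0.230 at ZT17, with an amplitude of 1.05 ± 0.11 (SE, permutation p = 2e-05, adjusted p = 3.5e-05). All 3 ratios to Elovl5 thus changed over the day, but the rhythm of Elovl5 enters each, so they are not separate results.

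Among the synthetases, the ratio of Acsl4 to Acsl5 was 0.166 at ZT1 and 0.287 at ZT13, with an amplitude of 0.46 ± 0.066 (SE, permutation p = 4e-05, adjusted p = 5.6e-05). The ratio of Acsl3 to Acsl5 had an amplitude of 0.30 ± 0.11 (SE, permutation p = 0.045) and missed the threshold once adjusted (adjusted p = 0.053). It passed without the second liver of ZT9 (adjusted p = 0.00813), without the first of ZT13 (adjusted p = 0.0109) and without the second of ZT21 (adjusted p = 0.0466). The ratio of Acsl4 to Acsl3, at 0.17 ± 0.11 (SE, permutation p = 0.37, adjusted p = 0.37), did not pass. Since each ratio holds genes already tested one by one, these tests add whether a pair moved unequally, not whether either gene moved.

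**Figure D3:**
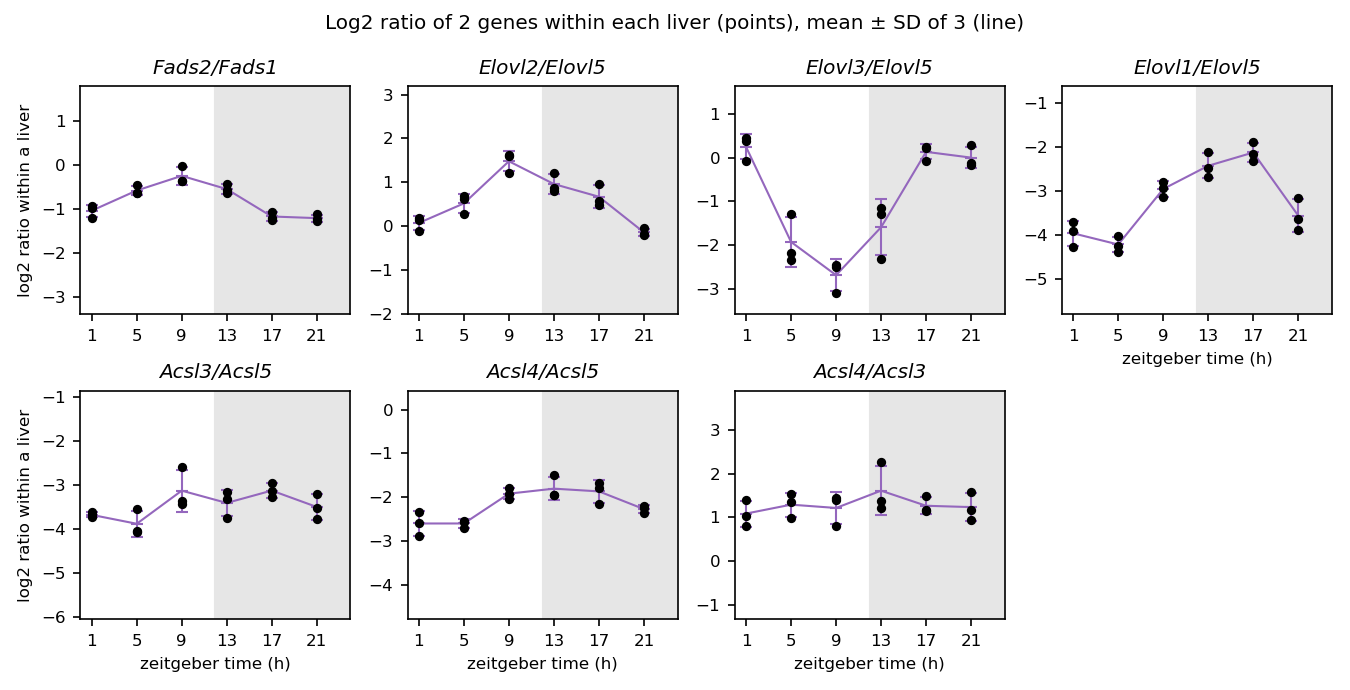
Log2 ratio of 2 genes within each liver (vertical, all panels spanning the same number of log2 units) against zeitgeber time in hours (horizontal), with 1 point per liver, the mean ± SD of 3 livers as a line and the dark phase shaded. The ratio of Fads2 to Fads1 and that of Elovl2 to Elovl5 are highest at ZT9, where that of Elovl3 to Elovl5 is lowest, and Acsl4 to Acsl3 stays near its mean.

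The 3 rhythm algorithms of the study were rewritten and applied to the same values. By each of them the study found more genes in these livers than were called here, so the calls below are not those of the study. JTK ranks the livers against cosine orders, and MC combines JTK with a Lomb–Scargle periodogram. CircaN fits a curve by non-linear least squares and also asks for an R-squared of at least 0.7. Here it was run with its plain cosine alone and without its random effect for replicates. JTK called 6 of the 9 genes, where 14% of all genes were called, and MC called 6, where 18.1% were. All MC calls were lost, for these 6 genes (q from 0.327 to 0.359) and for all others, when the larger of the JTK and Lomb–Scargle p-values was taken in place of Fisher's combination. The CircaN cosine called 5, against 11.2% of all genes. Elovl1, Elovl2, Elovl3, Elovl5 and Acsl5 were called by all 3. Fads2 was called by JTK (q = 0.0131) and MC (q = 0.00486), whereas its CircaN fit stopped at an R-squared of 0.681. It passed on log2 values (0.786) and when the first liver of ZT5 (0.721), the second of ZT5 (0.703) or the first of ZT13 (0.721) was left out.

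Fads1, Acsl3 and Acsl4 were called by none of the 3 algorithms, with JTK q-values of 0.085, 1 and 0.13 and R-squared values of 0.294, 0.117 and 0.489. Elovl3 had the best fit at an R-squared of 0.876, closely followed by Elovl1 at 0.862 and Elovl5 at 0.852. The JTK calls of Elovl5 (q = 0.0282) and Acsl5 (q = 0.0229) were the nearest to the threshold. That of Elovl5 was lost with equal sums (q = 0.0535) and in 7 of 18 runs without 1 liver (q from 0.0582 to 0.0803), namely the third of ZT1, the second and the third of ZT5, the second of ZT13, the second and the third of ZT17 or the first of ZT21. That of Acsl5 was lost in 4 of 18 (q from 0.0541 to 0.0627), without the third liver of ZT1, the second of ZT5, the first of ZT13 or the second of ZT17. The limma cosine and MC called both genes in each of these runs. JTK called Fads1 when it tested 24 h alone (q = 0.0377). It also did so when its null took time points of equal cosine value as 1 group (q = 0.0439). MC called Acsl4 without the third liver of ZT17 (q = 0.0365). The R-squared of Elovl2, at 0.729, fell to 0.699 without the third liver of ZT17.

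The wide spread of Fads2 at 3 times led to a further comparison, chosen after the values had been seen. For each gene, the deviation of each liver from the mean log2 value of its own time point was computed, which removes any daily profile, and the deviations of all 36 pairs of the 9 genes were correlated over the 18 livers. Exact permutation within time points gave the p-values. Fads1 and Fads2 had the highest correlation, with a Pearson r of 0.932 (exact permutation p = 0.00566, adjusted over 36 pairs p = 0.161) and a Spearman rho of 0.794 (exact permutation p = 0.0165, adjusted p = 0.119). Without the first livers of ZT5 and ZT13, which lay farthest from the median of Fads1, r was 0.870. After adjustment 0 pairs passed the threshold, while 6 of the 36 had an unadjusted p below 0.05 for r and 8 for rho.

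The livers that stood high for both desaturases were the first of ZT5, the second of ZT9 and the first of ZT13. At ZT5 this liver had a Fads2 value of 546 against 311 and 340.3 in the others, and an Elovl2 value of 1189.7 against 799 and 712. Elovl2 and Fads2 deviated together with an r of 0.809 (exact permutation p = 0.0163) and a rho of 0.746 (exact permutation p = 0.0163), and r was 0.774 without the 2 farthest livers. For Elovl5 and Fads2, r was 0.637 (exact permutation p = 0.0179) and rho 0.699 (exact permutation p = 0.00412), and r was 0.613 without the 2 farthest. Elovl2 and Fads1 gave an r of 0.774 (exact permutation p = 0.0319), which fell to 0.637 in the same way. The other 2 pairs with an unadjusted p below 0.05 for r joined Acsl4 to Fads2, with an r of 0.497 (exact permutation p = 0.0165) that was 0.380 without the 2 farthest livers, and Acsl3 to Elovl2, with an r of 0.634 (exact permutation p = 0.0425) that was 0.551. The summed endothelial markers of the 3 livers were 212, 189 and 174, each the highest of its time point. At ZT13 the third liver was close, with 171. The summed Kupffer cell markers were 283, 265 and 199, the highest of the time point in the livers of ZT5 and ZT9 but not in that of ZT13. At the other times, the liver with the highest Fads2 had the highest endothelial and Kupffer cell sums at ZT1 (173 and 252). That of ZT17 had the lowest sums (93.4 and 107), and that of ZT21 lay between the others (142 and 155). Genes of 1 liver share its library and scaling, and what the 3 livers high for both desaturases had in common was not tested.

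**Figure D4:**
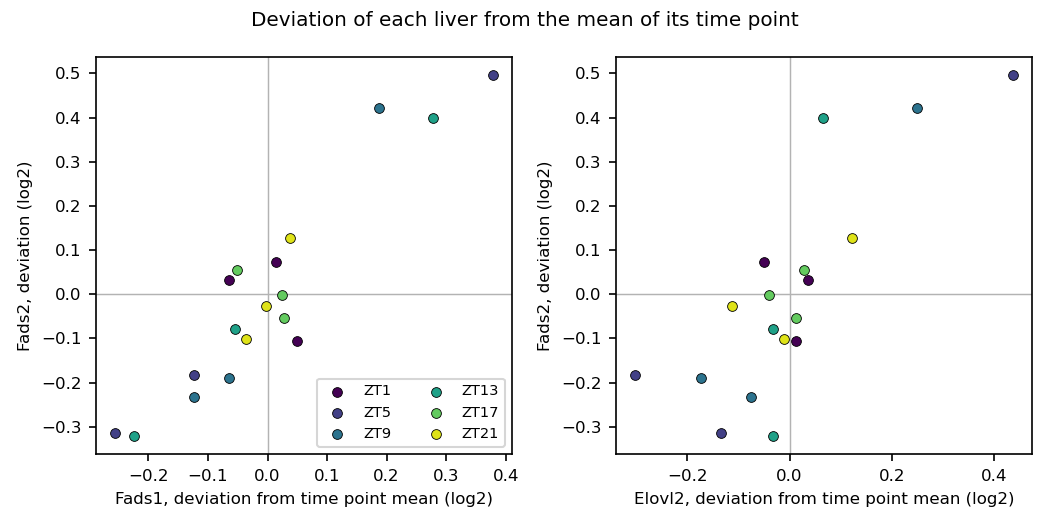
Deviation of each of 18 livers from the mean log2 value of its time point, for Fads2 (vertical, log2) against Fads1 (left) or Elovl2 (right, horizontal, log2), coloured by zeitgeber time. On the left, Fads1 and Fads2 line up with an r of 0.932, and 1 liver each of ZT5, ZT9 and ZT13 stands at the upper right, apart from the others. On the right, this liver of ZT13 deviates by 0.399 for Fads2 but only 0.066 for Elovl2.

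The rest of the pathway was described by lists of other genes, whose counts are read against the shares of all genes, namely 35.3% rhythmic by the limma cosine, 26.3% with a difference between the 6 time points, 14% called by JTK, and 11.9% higher and 12.3% lower in the dark. Of 7 other elongation genes measured, 4 were rhythmic by the cosine, 1 differed between the time points, JTK called 2, and 0 were higher and 1 was lower in the dark. Elovl6, which lengthens palmitic acid, was the widest, with 315 ± 109 (SD, n = 3) at ZT13 and 95.1 ± 18.4 (SD, n = 3) at ZT1 and an amplitude of 0.71 ± 0.13 (SE, adjusted p = 0.0017). Of 10 other desaturases and their electron donors, 6 were rhythmic, 5 differed between the time points, JTK called 2, and 1 was higher and 2 lower in the dark. Fads3, a relative of Fads1 and Fads2, was 5.13 ± 0.55 (SD, n = 3) at ZT17 against 19.998 ± 4.82 (SD, n = 3) at ZT5, with a peak at 6.01 h and an amplitude of 0.84 ± 0.11 (SE, adjusted p = 5.59e-05).

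Of 8 other acyl-CoA synthetases, 4 were rhythmic, 3 differed between the time points, JTK called 2, and 2 were higher and 1 lower in the dark. None of the rhythmic ones had an amplitude of 0.5 or more. The thioesterases, which undo the work of the synthetases, had 6 of 11 rhythmic genes and 5 that differed between the time points, with 4 higher in the dark and 0 lower by limma. JTK called 0 of the 11, with 4 at an unadjusted p below 0.05. Among them Acot3 had an amplitude of 1.32 ± 0.29 (SE, adjusted p = 0.00547), Acot1 of 0.74 ± 0.16 (SE, adjusted p = 0.00438), Acot11 of 0.60 ± 0.11 (SE, adjusted p = 0.0021) and Acot4 of 0.58 ± 0.13 (SE, adjusted p = 0.0059). Their fitted peaks lay in the dark, at 13.4, 18.6, 14.1 and 13.5 h. Acot1, Acot3 and Acot4 are close copies of each other, so their estimated counts are uncertain, and Acot3 ranged from 0.462 to 26.01 over the livers.

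Of 11 genes of fatty acid binding or uptake, 4 were rhythmic, about the share of all genes, 4 differed between the time points, JTK called 2, and 1 was higher and 2 lower in the dark. Fabp5, a fatty acid binding protein, had an amplitude of 0.90 ± 0.22 (SE, adjusted p = 0.0126) with a peak at 3.77 h. The peroxisomal genes, which shorten very long chains and complete docosahexaenoic acid, had 5 of 13 rhythmic, again about the share of all genes, 5 that differed between the time points, 2 called by JTK, and 0 higher and 2 lower in the dark. Abcd2, a peroxisomal importer of acyl-CoA, was 6.73 ± 2.89 (SD, n = 3) at ZT17 against 37.1 ± 21.97 (SD, n = 3) at ZT5, with an amplitude of 0.91 ± 0.18 (SE, adjusted p = 0.00314). The acyltransferases that place the products into phospholipids had the lowest share of these lists by the cosine, with 2 of 10. Of these 10, 2 differed between the time points, JTK called 1, and 1 was higher and 1 lower in the dark.

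Of 16 listed regulators of lipid metabolism, not all of them transcription factors, 12 were rhythmic and 11 differed between the time points. JTK called 8, and 4 were higher and 5 lower in the dark. Srebf1, whose product SREBP1 drives lipogenic genes, was 654 ± 57.4 (SD, n = 3) at ZT13 and 255 ± 33.2 (SD, n = 3) at ZT21, with a fitted peak at 11.9 h and an amplitude of 0.57 ± 0.092 (SE, adjusted p = 0.000488). Ppara, a nuclear receptor for fatty acids, was 121 ± 6.32 (SD, n = 3) at ZT9 and 64.9 ± 5.48 (SD, n = 3) at ZT1, with a peak at 8.33 h (adjusted p = 0.000604), close to that of Fads2. Nr1h3, the receptor LXR alpha, varied little, with an amplitude of 0.18 ± 0.038 (SE, adjusted p = 0.00433). Ppard and Insig2 had wide rhythms, with amplitudes of 1.24 ± 0.15 (SE, adjusted p = 2.45e-05) and 1.13 ± 0.087 (SE, adjusted p = 2.53e-07) and peaks at 21.6 and 22.5 h, near that of Elovl3. Ppargc1b, a coactivator, had an amplitude of 0.60 ± 0.13 (SE, adjusted p = 0.00634) and peaked at 7.96 h.

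For each of the 9 genes, the 3 genes most like it were found by the Pearson correlation of log2 values over the 18 livers, among 9332 genes with a mean of at least 5. All livers share the same time points, so many genes correlate in this way, and the values are given as a description. Elovl3 was most like Asap2 (0.979), Ethe1 (0.973) and Clpx (0.971). Elovl2 was most like Scap (0.962), which escorts SREBP proteins to the Golgi and is 1 of the listed regulators, followed by Serpinf2 (0.952) and Add1 (0.931). For Elovl1 these were Ppa1 (0.942), Tmem150a (0.925) and Rtp3 (0.915), and for Elovl5 Lgals9 (0.938), Kynu (0.933) and Ccni (0.932).

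Fads2 was most like Hs3st3b1 (0.931), Cpt1a (0.924), which carries out the entry step of mitochondrial fatty acid oxidation, and Mgrn1 (0.892). Fads1 was most like Ltbp4 (0.929), Igfbp7 (0.896) and Hs3st3b1 (0.879), so that Hs3st3b1 was found for both desaturases. Acsl5 was most like Nqo2 (0.918), Plin2 (0.917), a coat protein of lipid droplets, and BC004004 (0.915). Acsl4 reached lower values, with Mrps36 (0.825), Letmd1 (0.819) and Dnajc25 (0.817). Acsl3 was most like Lss (0.776), Mblac2 (0.771) and Sqle (0.760), of which Lss and Sqle are enzymes of cholesterol synthesis. No gene of the 9 was among the 3 most like another of the 9, but some came close. Elovl5 ranked 5 for Acsl5 (0.912), Acsl5 ranked 9 for Elovl5, and Fads2 ranked 7 for Fads1 (0.855), while Fads1 ranked 30 for Fads2.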

How the data were processed

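RNA of 18 mouse livers, 3 at each of 6 time points given by the labels, was analysed. The authors removed adapters with cutadapt, quantified reads on GRCm38 transcripts with RSEM 1.2.20 after CASAVA 1.8.2 and normalized with limma. The deposited values are a linear signal, the estimated count plus 0.5, per 1000000 reads of an adjusted library size. Between 39.1% and 47.9% of values per liver lay within 0.005 of a whole read, so no count model was used. Tests on log2(value + 1) used limma 3.58.1 in R 4.3.3, adjusted over 14449 genes, and were checked on simulated data. JTK used 18 cosine orders of 20, 24 and 28 h and the exact null for 6 distinct groups of 3 livers. Time points can share a cosine value within an order, and for such orders this null is not exact. Lomb–Scargle used 15 independent frequencies. Both were run in Python 3.11.15 with scipy 1.17.1. Alternatives were other pseudocounts (0.5, 5), scalings, a filter on means below 1 and leaving out each liver. The 9 genes and all lists were chosen with earlier results of these data known. Listed genes are named if called with an amplitude of at least 0.5, at most 4 per list, beside Srebf1, Nr1h3 and Ppara. The limma tests of the 6 time points and of dark against light set differences against the spread between mice of a time point. In the limma cosine fits that spread also holds departures of the time point means from the curve. The ratio tests permuted livers across all time points, and JTK, Lomb–Scargle and CircaN used all 18 values together. Markers of stellate cells (174.9 to 204 as means by time), cholangiocytes (37.6 to 48.9), lymphocytes (9.47 to 13.2, 4 of 5 listed), adipocytes (0.264 to 1.14, 1 of 4 listed) and erythroid cells (150.1 to 247) were summed too.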

Additional observations from a re-analysis of the deposited data

How the results depend on the processing

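The limma cosine, the test of the 6 time points, dark against light, JTK, MC and the CircaN cosine gave 54 results for the 9 genes. Of these, 37 kept their side of the threshold under every alternative run, and their direction in dark against light. The other tests have no direction that could reverse, and the 12 h term and the ratios are not among the 54. The changed calls of single genes are given in the report beside their values. Of all genes, the 12 h term was called for 126, for 195 with log2(value + 5) and for 32 to 114 when 1 liver was left out. JTK called 2018 of all genes, and 1127 to 1793 without 1 liver. It called 3237 when its null took time points of equal cosine value as 1 group. With the larger of the JTK and Lomb–Scargle p in place of Fisher's combination, MC called 0 of the 9 genes and 0 of all genes, although 6 and 1949 had an unadjusted p below 0.05, and JTK called 6 and 2018. The ratio of Acsl3 to Acsl5 passed with log2(value + 5) at an amplitude of 0.301 (adjusted p = 0.0287), and its amplitude was 0.263 to 0.372 without 1 liver. The dark minus light difference of Acsl3 was −0.00288 with equal sums and, without 1 liver, between −0.0195 and 0.151. The causes were not tested. Leaving out 1 liver changes both which livers are present and how many, and these cannot be told apart. No paired analysis was possible because the livers come from different mice and the labels give them no shared numbers. With 3 livers per time and 1 cycle, a rhythm of 24 h cannot be told apart from a single response to that day.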
